A study of Arabidopsis thaliana with 18 samples.

Results

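The genes described here are Arabidopsis thaliana genes of the IQD family and of the families that encode tubulin and actin. They were chosen by symbol, with no measured value in the rule, although the families were picked with earlier results of these data known. A measured feature (a probe set) had to be paired with exactly 1 gene whose symbol begins with IQD, TUA, TUB, ACT, ADF, PRF, FIM, MAP65 or MAP70 and continues with a number. The rule found 22 genes, each with 1 feature, among 38408 features, of which 16722 were paired with exactly 1 gene. They comprise 14 IQD genes (IQD16, IQD18, IQD19, IQD20 and IQD22 to IQD31), 5 beta-tubulin genes (TUB1, TUB5, TUB6, TUB7 and TUB9), the alpha-tubulin gene TUA6, and the actin genes ACT11 and ACT12. The current annotation lists 77 genes under these family names, so most of the ACT and TUA genes are not described here. None of the 11 ADF, 4 PRF, 2 FIM, 7 MAP65 and 5 MAP70 genes met the rule.

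The arrays fell into 6 groups of 3, 18 in all, and all seedlings were 4 days old at treatment. The J0571 DEX and J0571 control groups were of ecotype C24, carried J0571>>pUAS-TMO5-GR, and were kept for 2 h with dexamethasone (DEX) or as the control. Their roots were then protoplasted, and RNA was taken from sorted cells positive for green fluorescent protein (GFP). J0571 is an enhancer trap line that drives UAS transgenes in the ground tissue of the root. The root DEX+CHX, root CHX, root DEX and root MS groups were root tips of ecotype Col-0 that carried pRPS5A-TMO5-GR and were kept for 1 h with DEX and cycloheximide (CHX), CHX, DEX or plain MS medium. The RPS5A promoter is active in dividing cells. Every group, controls included, carried TMO5 fused to the glucocorticoid receptor, so DEX was not set against DEX in plants without the fusion here. The labels do not say whether the 3 repeats of a group came from separate cultures, so the p-values measure the spread between these arrays.

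TMO5 is a basic helix-loop-helix transcription factor that acts in the divisions forming vascular tissue, and the fused receptor domain keeps it out of the nucleus until DEX is added. CHX blocks protein synthesis on ribosomes, so a change with DEX that occurs in its presence does not need newly made protein. IQD proteins are plant proteins that bind calmodulin through their IQ67 domain, and many of them sit on microtubules. Alpha- and beta-tubulin form the dimers of which microtubules are built, and actin forms the filaments along which much of the transport in plant cells runs.

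Signal is given on the log2 scale of the deposited values, on which a difference of 1 is a doubling. Array medians were 4.50 to 4.87, and arrays of 1 group correlated with r of 0.982 to 0.992 across all features. The members' features were spread over this scale: in root MS they averaged 2.94 for IQD27 and 8.94 for IQD31 within the IQD family, and 6.59 for TUB7 and 9.24 for TUB6 within the TUB family. Such values depend on the probes and set no order of transcript abundance between genes. Of the 22 members, 17 lay above the array median on all 18 arrays. IQD25, IQD27 and TUA6 lay below it on all 18 arrays, IQD24 on 17 and ACT12 on 15, so changes of these 5 genes were measured at low signal. The beta-tubulin genes resemble each other closely in sequence, and the probes' sequences were not used here, so signal from a relative cannot be separated from a gene's own. Signal from relatives was not checked for the actin genes either, nor was the pairing of TUA6 with its feature.

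IQD22, one of the calmodulin-binding IQD genes, changed more with CHX than any other member. Its signal was 9.49, 9.32 and 9.16 in root DEX+CHX and 9.38, 9.41 and 9.47 in root CHX, against 7.31, 7.06 and 7.32 in root DEX and 7.20, 7.25 and 7.13 in root MS. Each array with CHX was above each root tip array without it by more than the spread within any of these groups. IQD22 was 4.67-fold higher in root CHX than in root MS (log2 change 2.22, SE 0.11, limma adjusted p = 1.64e-07). It was 4.27-fold higher in root DEX+CHX than in root DEX (log2 change 2.10, SE 0.11, adjusted p = 2.20e-07). These comparisons share no arrays.

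IQD16 and IQD26 also rose with CHX both without and with DEX. IQD16, also known as ABS6, acts with the microtubule-severing protein katanin. IQD16 read 6.72, 6.75 and 6.85 in root DEX+CHX against 5.56, 5.50 and 5.57 in root DEX, and 6.68, 6.43 and 6.49 in root CHX against 5.77, 5.43 and 5.22 in root MS. No array with CHX overlapped an array without it. The log2 change of IQD16 was 1.22 with DEX present (SE 0.13, adjusted p = 5.06e-05) and 1.06 without (SE 0.13, adjusted p = 0.000167). IQD26 read 7.30, 7.34 and 7.15 in root DEX+CHX against 5.94, 6.17 and 6.12 in root DEX, and 7.35, 7.44 and 7.62 in root CHX against 6.53, 6.12 and 6.44 in root MS. Its log2 change was 1.19 with DEX present (SE 0.13, adjusted p = 4.98e-05) and 1.11 without (SE 0.13, adjusted p = 9.65e-05), and the groups did not overlap.

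**Figure D1:**
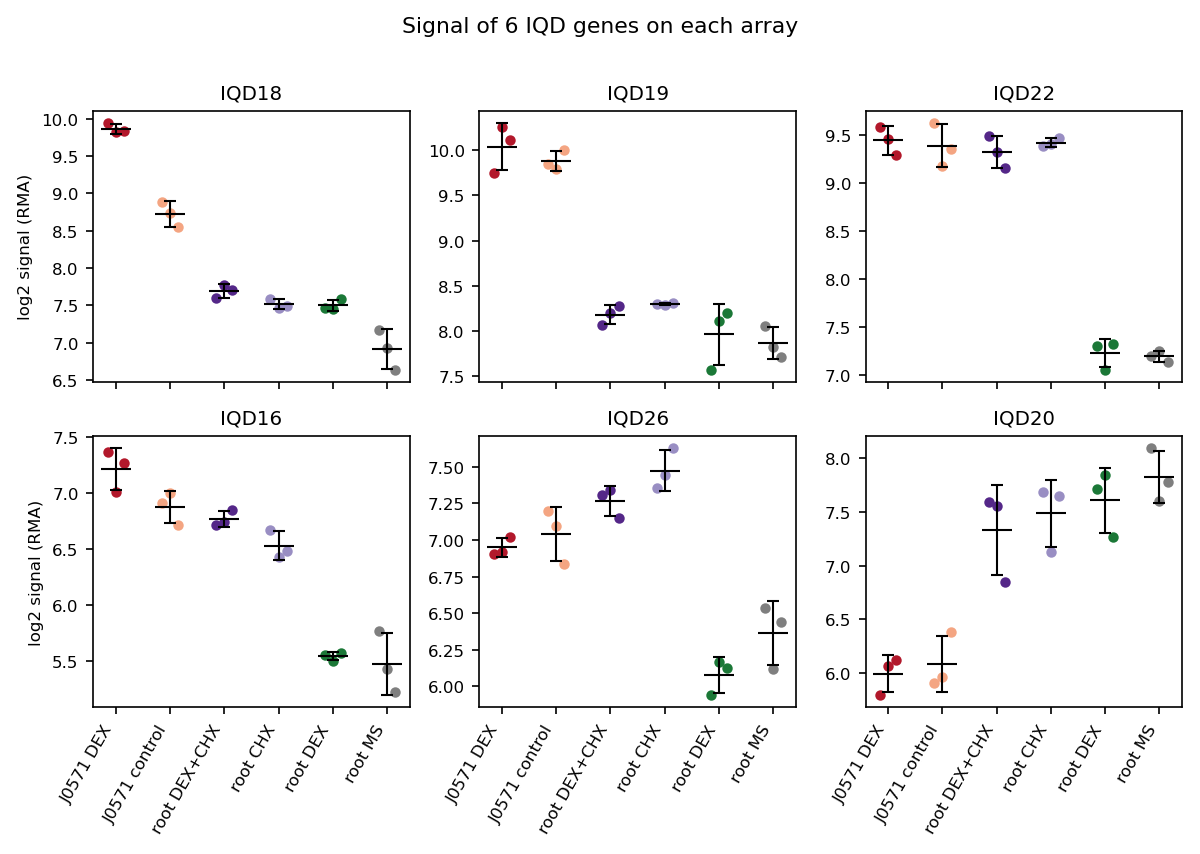
Signal of IQD18, IQD19, IQD22, IQD16, IQD26 and IQD20 on each of the 18 arrays. The y axis is log2 signal, with its own range in each panel; points are arrays, the long bar is the group mean and the whiskers 1 SD (n = 3). IQD22, IQD16 and IQD26 are lowest in root DEX and root MS, IQD18 and IQD19 are highest in the J0571 groups, and IQD20 is lowest there.

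IQD18 rose with CHX in plants without DEX and IQD31 fell. IQD18 read 7.59, 7.46 and 7.49 in root CHX against 7.17, 6.93 and 6.64 in root MS, without overlap (log2 change 0.60, SE 0.12, adjusted p = 0.00469). With DEX in both groups, IQD18 read 7.59, 7.77 and 7.71 in root DEX+CHX against 7.47, 7.45 and 7.58 in root DEX, and the change of 0.19 did not pass the test (adjusted p = 0.276). IQD31 read 8.39, 8.46 and 8.43 in root DEX+CHX against 8.89, 9.00 and 8.91 in root DEX, and 8.63, 8.50 and 8.68 in root CHX against 8.86, 8.98 and 8.98 in root MS. The arrays of IQD31 did not overlap in either comparison, and its log2 change was -0.51 with DEX present (adjusted p = 0.000755) and -0.34 without (adjusted p = 0.00937).

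IQD19 did not pass the test with CHX: its log2 change was 0.43 in root CHX against root MS (SE 0.16, adjusted p = 0.0596) and 0.22 in root DEX+CHX against root DEX (SE 0.16, adjusted p = 0.323). It read 8.07, 8.20 and 8.28 in root DEX+CHX, 8.30, 8.28 and 8.31 in root CHX, 7.58, 8.11 and 8.20 in root DEX, and 8.06, 7.82 and 7.72 in root MS. Root CHX lay above root MS on every array, while root DEX+CHX overlapped root DEX. IQD28, IQD29 and IQD30 fell with CHX in DEX-treated tips. Their log2 changes were -0.34 (adjusted p = 0.0166), -0.33 (adjusted p = 0.00987) and -0.48 (adjusted p = 0.00158). In the absence of DEX they changed by -0.21, -0.18 and -0.08, which did not pass.

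All 6 measured tubulin genes, among them TUA6 at low signal, fell in root DEX+CHX against root DEX, by 0.47 to 0.78 on the log2 scale. TUB5 and TUB9 also fell in root CHX against root MS, where the changes of the 6 genes were -0.09 to -0.62. Their median change was -0.61 with DEX present and -0.31 without. After each array was set to the same median, the medians were -0.39 with DEX present and -0.14 without. All 6 then stayed below 0 with DEX present and 3 passed, and 5 of 6 stayed below 0 without DEX and 1 passed.

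TUB5 gave 6.04, 6.22 and 6.25 in root DEX+CHX against 7.11, 6.78 and 6.96 in root DEX (log2 change -0.78, SE 0.16, adjusted p = 0.00302). In plants without DEX, TUB5 gave 6.03, 6.16 and 6.65 in root CHX against 6.95, 6.94 and 6.79 in root MS (log2 change -0.62, SE 0.16, adjusted p = 0.0129). Neither pair of groups overlapped, although root CHX replicate 3, at 6.65, came close to root MS. Without root CHX replicate 1, the lowest of its group, the adjusted p of TUB5 was 0.0525. TUB9 gave 8.55, 8.55 and 8.65 in root DEX+CHX against 9.36, 9.22 and 9.16 in root DEX (log2 change -0.66, SE 0.10, adjusted p = 0.0007). TUB9 gave 8.71, 8.47 and 8.83 in root CHX against 9.14, 9.23 and 9.25 in root MS (log2 change -0.54, SE 0.10, adjusted p = 0.003). The arrays of TUB9 separated fully in both comparisons.

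TUB6 gave 8.99, 8.81 and 8.85 in root DEX+CHX against 9.46, 9.36 and 9.49 in root DEX (log2 change -0.56, adjusted p = 0.0025). It gave 9.00, 8.81 and 8.99 in root CHX against 9.09, 9.44 and 9.20 in root MS, without overlap, but the change of -0.31 did not pass (adjusted p = 0.0504). TUB1 and TUB7 fell in the presence of DEX, by 0.69 (adjusted p = 0.0276) and 0.53 (adjusted p = 0.0185) on the log2 scale. These are the least firm of the beta-tubulin calls: the adjusted p of TUB1 was 0.0581 to 0.104 without any 1 of 5 arrays (every root DEX replicate, and root DEX+CHX replicates 2 and 3), and that of TUB7 was 0.0592 without root DEX replicate 1 and 0.0728 without root DEX+CHX replicate 2. TUA6 fell by 0.47 with DEX present (adjusted p = 0.00431) at a signal of 2.29 to 2.97, below the median of every array. Without DEX the changes of TUB1, TUB7 and TUA6 were -0.31, -0.09 and -0.28, and none passed.

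The change with CHX was not shown to differ with and without DEX for any tubulin gene. The test of that difference called 0 of the 22 members by limma at an adjusted p under 0.05 and 0% of all features, while 2 members (IQD18 and IQD30) and 1684 of all 38408 features had an unadjusted p under 0.05. Of all 38408 features, 19612 lay below 0 in this test. The differences of the 6 tubulin genes were -0.13 (TUB9) to -0.44 (TUB7), all below 0, also after quantile normalization and after setting equal array medians. Each equals the DEX change with CHX minus that without, so these signs and those of the DEX changes given below are 1 observation. The 6 genes cannot be counted as independent, as signal from a relative was not separated, and TUA6 was at low signal. For IQD18 the difference was -0.41 (adjusted p = 0.999) and for IQD30 it was -0.40 (adjusted p = 0.999).

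**Figure D2:**
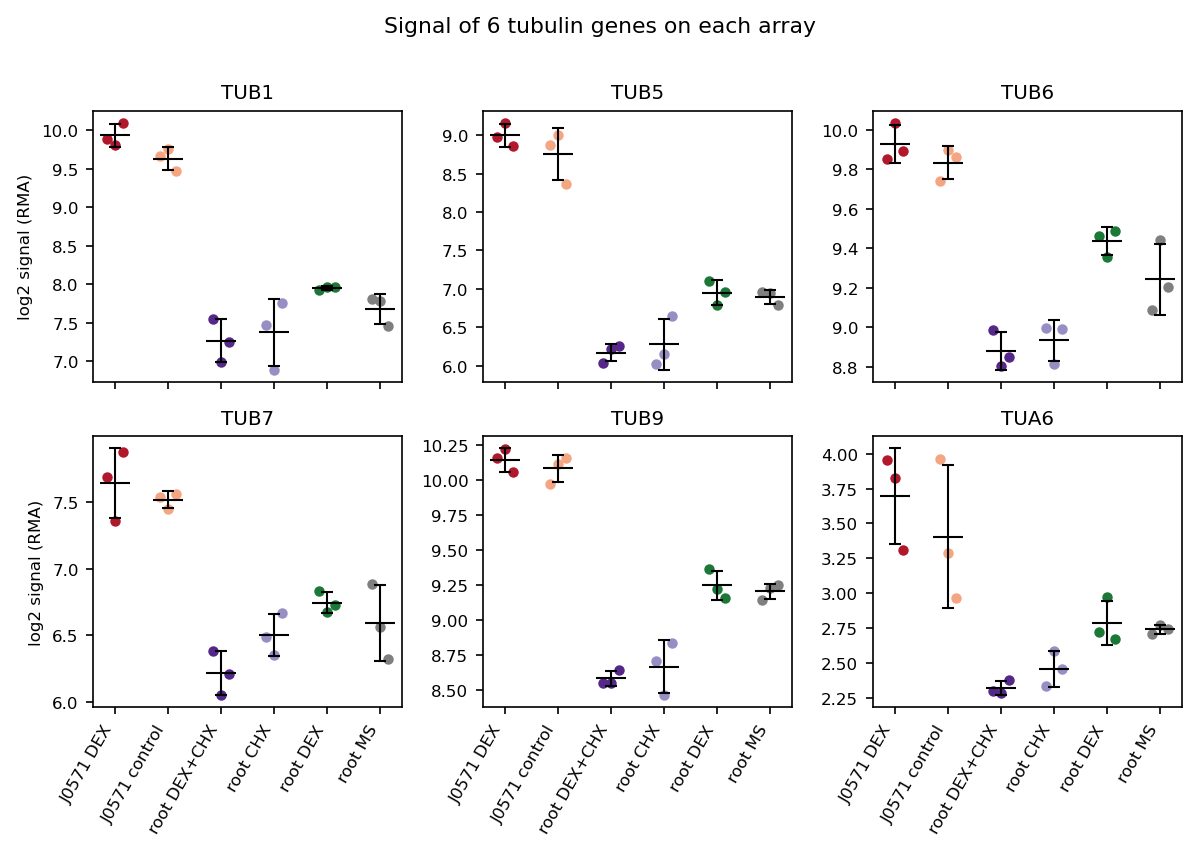
Signal of the 6 tubulin genes on each of the 18 arrays. The y axis is log2 signal, with its own range in each panel; points are arrays, the long bar is the group mean and the whiskers 1 SD (n = 3). Each gene is highest in the J0571 groups and lowest in root DEX+CHX and root CHX, and TUA6 is at low signal throughout.

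The 2 measured actin genes did not change with CHX beyond the spread. ACT11 encodes an actin of the class known from reproductive organs, and its log2 change was -0.00 in root DEX+CHX against root DEX (95% interval -0.38 to 0.38) and 0.05 in root CHX against root MS (95% interval -0.33 to 0.42). ACT11 read 8.68, 8.53 and 8.55 in root DEX+CHX, 8.56, 8.57 and 8.78 in root CHX, 8.56, 8.42 and 8.78 in root DEX, and 8.97, 8.23 and 8.58 in root MS, with all groups overlapping. ACT12, an actin of the same class known from pollen, changed by -0.04 (95% interval -0.42 to 0.34) and 0.16 (95% interval -0.22 to 0.54) in these comparisons, also with overlap. After each array was set to the same median, both actin genes lay above 0 and neither passed. Their median change was then 0.195 with DEX present and 0.273 without.

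Counted over the list, 4 members were higher and 3 lower in root CHX against root MS. Among all features 10.4% were higher and 19.7% lower, and among those of exactly 1 gene 13.3% and 12.4%. In root DEX+CHX against root DEX, 3 members were higher and 10 lower, where 11.6% of all features were higher and 22.1% lower, and 15.1% and 13.9% of those of exactly 1 gene. IQD16, IQD22 and IQD26 were higher in both, and IQD31, TUB5 and TUB9 lower in both. The median change of the 22 members was -0.09 without DEX and -0.23 with DEX, against -0.13 in both comparisons over all features and -0.05 in both over features of exactly 1 gene.

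CHX arrays had lower medians than the other root tip arrays. Setting equal medians raised each CHX change by 0.17 without DEX and by 0.22 with DEX, and the splits became 5 higher and 1 lower without DEX and 5 higher and 4 lower with DEX. IQD16, IQD22, IQD26 and TUB9 passed there too in both comparisons, as did IQD18 without DEX and IQD31, TUB5 and TUB6 with DEX. The calls of IQD31 and TUB5 without DEX, and of IQD28, IQD29, IQD30, TUA6, TUB1 and TUB7 with DEX, were lost at equal medians. IQD19 without DEX (adjusted p = 0.0228) and IQD18 (adjusted p = 0.0341) and IQD23 (adjusted p = 0.0266) with DEX were gained as higher.

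**Figure D3:**
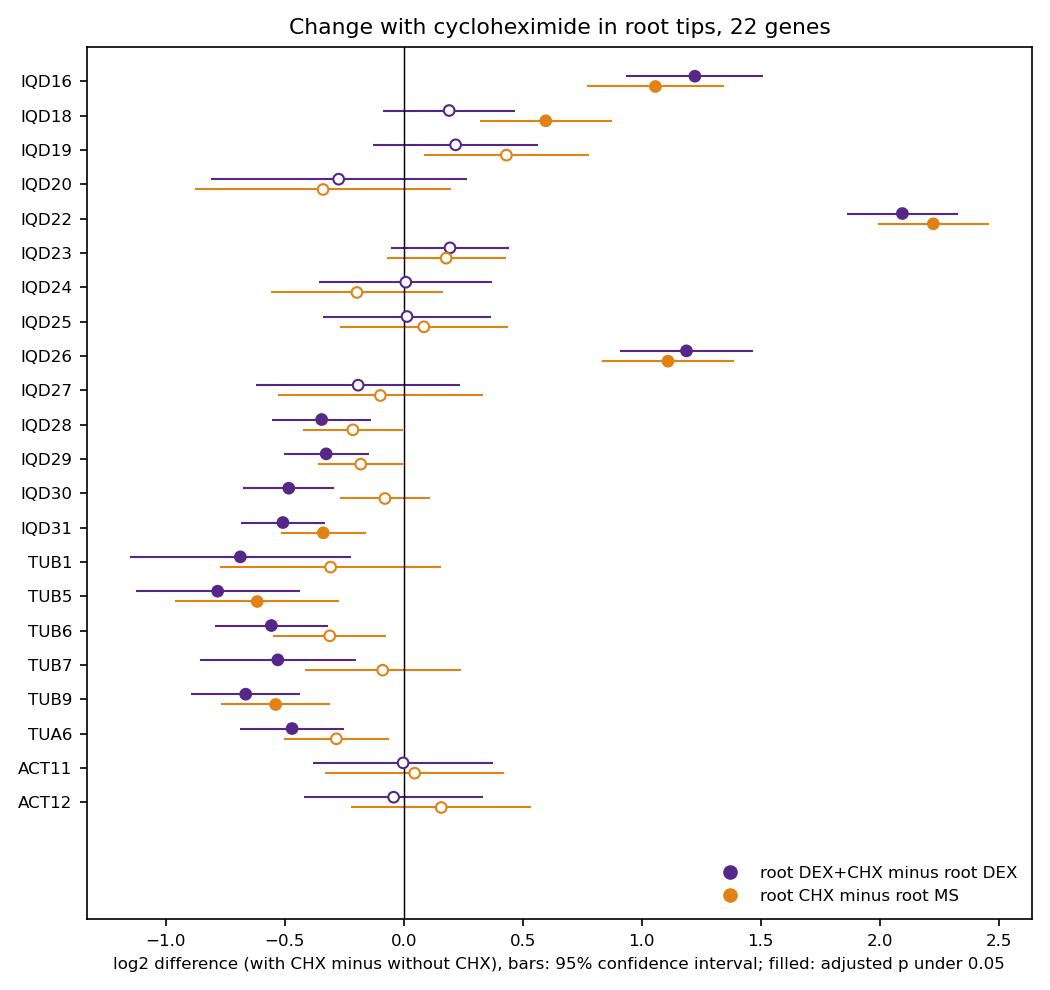
Log2 change with CHX of each of the 22 genes, in root DEX+CHX minus root DEX and in root CHX minus root MS. Points are differences of group means (n = 3 against 3), bars are 95% confidence intervals, and filled points have an adjusted p under 0.05. IQD22, IQD16 and IQD26 lie to the right of 0 in both, the tubulin genes lie to the left, and ACT11 and ACT12 lie near 0.

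Few genes that act with these families were measured. None of 10 listed calmodulin and CMU genes, 3 of 20 microtubule regulators, 1 of 16 actin regulators and 2 of 12 mitosis genes had a feature of their own. AUR2, an Aurora kinase of dividing cells, fell with CHX, by 0.55 with DEX present (adjusted p = 0.0152) and 0.49 without (adjusted p = 0.0293). AUR1, the other Aurora kinase measured, changed by -0.06 and -0.05 and did not pass. Among the microtubule regulators AT5G17410 fell without DEX by 0.29 (adjusted p = 0.0435), and neither TUBG1, a gamma-tubulin, nor TON1B, which acts in organising cortical microtubules, passed. The actin-binding NET1A changed by -0.43 with DEX present and -0.36 without, with adjusted p of 0.0586 and 0.109. Genes of these lists were not tested at equal array medians, which raise each CHX change by 0.22 with DEX present and 0.17 without. STZ, the 1 measured gene of 4 listed for early stress, rose with CHX by 3.35 with DEX present and 3.13 without, and its part in the changes above was not tested.

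DEX changed no member past the threshold in any of the comparisons that ask what TMO5-GR activation does. In root DEX against root MS, 0 of 22 members and 0% of all features were called by limma, while 2 members and 2368 features had an unadjusted p under 0.05. In root DEX+CHX against root CHX, 0 members and 0% of all features were called, with 1 member and 1189 features at an unadjusted p under 0.05. The average DEX effect over both also called 0 members and 0% of all features, with 2 members and 1798 features at an unadjusted p under 0.05. In J0571 DEX against J0571 control, 0 members were called, 0.0338% of all features were, and 1 member and 2239 features had an unadjusted p under 0.05.

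IQD18 had the largest DEX change among the members in J0571 cells and in root DEX. It read 9.94, 9.82 and 9.84 in J0571 DEX against 8.89, 8.73 and 8.55 in J0571 control. The lowest DEX array was above the highest control array by more than the range within either group. The 2.21-fold difference (log2 change 1.15, SE 0.12, 95% interval 0.85 to 1.44) had an adjusted p of 0.111 in limma on the 6 J0571 arrays. The call depended on how the spread was estimated: the adjusted p was 0.0115 with an intensity trend and robust variances, 0.000321 with all 18 arrays in 1 fit, and 0.0671 to 0.655 in the other 11 alternatives.

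In root tips IQD18 read 7.47, 7.45 and 7.58 in root DEX against 7.17, 6.93 and 6.64 in root MS, again without overlap. The log2 change of 0.58 (SE 0.12) had an adjusted p of 0.426. With CHX present the values of 7.59, 7.77 and 7.71 in root DEX+CHX against 7.59, 7.46 and 7.49 in root CHX touched without overlapping. The log2 change there was 0.18 (SE 0.12, adjusted p = 1), and the average DEX effect in root tips was 0.38 (SE 0.09, adjusted p = 0.741). The DEX change of IQD18 in J0571 cells exceeded that in root tips by 0.56 (SE 0.17), which did not pass over all features (adjusted p = 0.546).

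No other IQD gene passed with DEX either. IQD19 read 9.75, 10.25 and 10.11 in J0571 DEX against 9.85, 9.78 and 10.00 in J0571 control, with overlap (log2 change 0.16, 95% interval -0.22 to 0.54). In root tips it changed by 0.10 without CHX and by -0.12 with CHX. IQD22 read 9.59, 9.46 and 9.29 in J0571 DEX against 9.62, 9.18 and 9.35 in J0571 control, with overlap (log2 change 0.06, 95% interval -0.31 to 0.43). It changed by 0.03 in root tips without CHX and by -0.10 with CHX. At the other end of the family were IQD24 with -0.46 in J0571 cells, IQD26 with -0.29 in root DEX and -0.25 in the average DEX effect, and IQD30 with -0.22 in root DEX+CHX against root CHX. In that last comparison IQD16, at 0.24, was the highest of the family, above IQD18. None of these passed.

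The tubulin genes lay on opposite sides of 0 in the root tip comparisons without passing in either. All 6 were above 0 in root DEX against root MS, from 0.04 (TUB9) to 0.27 (TUB1), with 5 of 6 above 0 after setting equal array medians. All 6 were below 0 in root DEX+CHX against root CHX, from -0.05 (TUB6) to -0.29 (TUB7), also after quantile normalization and at equal array medians. In J0571 DEX against J0571 control all 6 were above 0, from 0.06 (TUB9) to 0.30 (TUB1), also under both other scalings. Of all 38408 features, 19278 were above 0 in root DEX and 18807 in J0571 DEX. With CHX present, 19675 features were below 0 with DEX. The tubulin genes cannot be counted as independent, as signal from a relative was not separated, and TUA6 was at low signal. TUB1 read 9.89, 9.81 and 10.10 in J0571 DEX against 9.67, 9.76 and 9.47 in J0571 control, just without overlap (adjusted p = 0.849). In J0571 cells ACT11 changed by -0.24 and ACT12 by 0.24 with DEX, and in root DEX by -0.00 and 0.12, with overlap in each case.

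In root DEX the groups did not overlap for 3 of 22 members that were higher (13.6%, against 4.68% of all features) and for 0 that were lower (against 4.58%). In root DEX+CHX against root CHX they did not overlap for 2 higher members (9.09%, against 4.56%) and 4 lower ones (18.2%, against 4.98%). In J0571 DEX they did not overlap for 5 higher members (22.7%, against 5.79%) and 1 lower one (4.55%, against 6.03%). The members' shares lay above those of all features on 1 side in J0571 DEX and root DEX and on both sides with CHX present. As 1 member is 4.55% of the 22, these shares rest on few genes, and no test was made of them. The median change of the 22 members was 0.09 in J0571 DEX, -0.10 in root DEX+CHX against root CHX and 0.05 in root DEX, against -0.00, -0.00 and 0.00 over all features. The test of the DEX change in J0571 cells minus that in root tips called 0 members and 0.0521% of all features, with 1 member (IQD18) and 2397 features at an unadjusted p under 0.05. Apart from IQD18, these differences were -0.31 (IQD24) to 0.26 (IQD16). None of the 6 measured genes of the microtubule, actin and mitosis lists was called with DEX. Their smallest unadjusted p were those of AUR2 in J0571 cells (log2 change 0.15, adjusted p = 0.933), AUR1 in root DEX+CHX against root CHX (-0.09, adjusted p = 1) and TON1B in root DEX (-0.21, adjusted p = 0.876). Among the cell type markers, the stele gene PHV changed by -0.53 (adjusted p = 0.759) in J0571 DEX against J0571 control, without overlap. The ground tissue marker AT1G62500, at low signal, changed by -0.49 there (adjusted p = 0.779), also without overlap. The other measured ground tissue markers went the other way, JKD by 0.12 and AT4G28100 by 0.15. The stele gene OPS, at low signal, changed by -0.26. None of these markers passed. The changes of PHV and AT1G62500 exceed in size that of every member but IQD18 there. The part of these markers in the change of IQD18 was not tested.

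**Figure D4:**
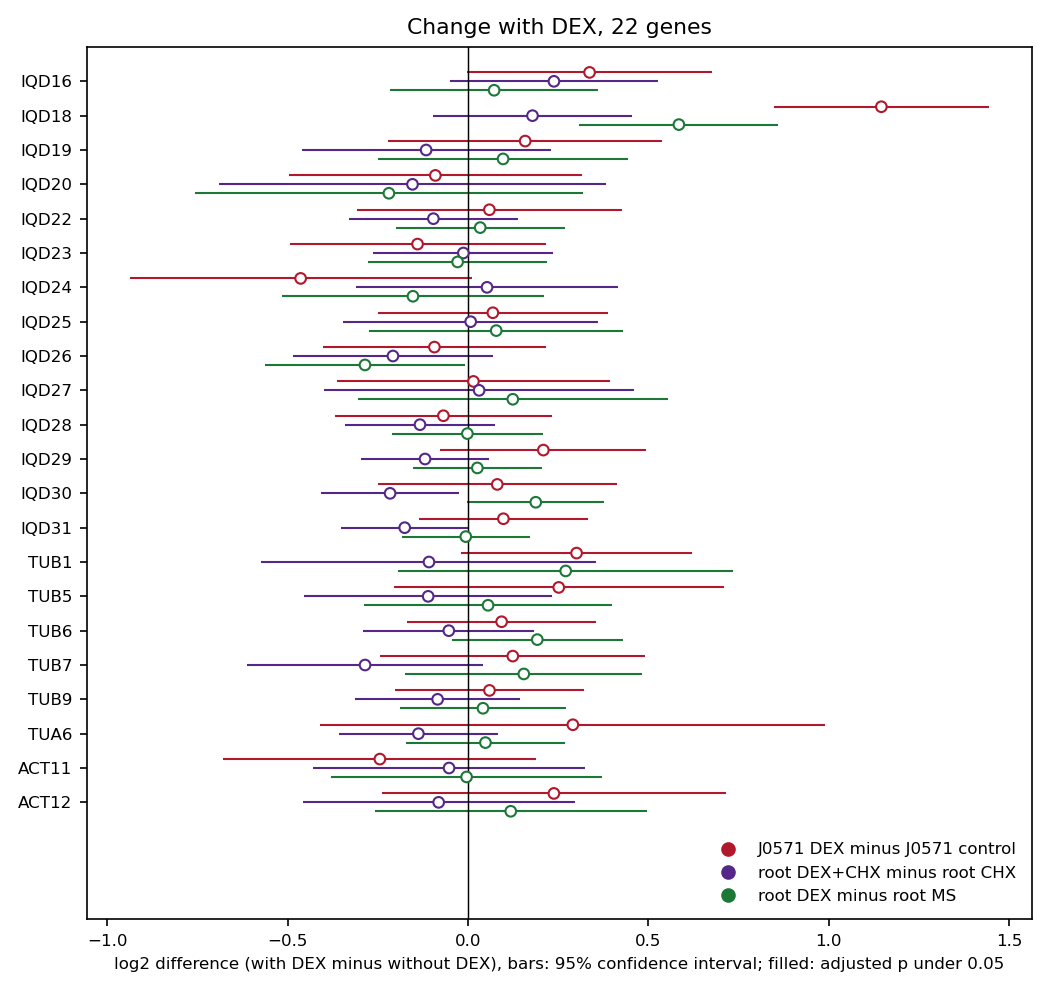
Log2 change with DEX of each of the 22 genes, in J0571 DEX minus J0571 control, root DEX+CHX minus root CHX and root DEX minus root MS. Points are differences of group means (n = 3 against 3), bars are 95% confidence intervals, and filled points would have an adjusted p under 0.05. No point is filled, and IQD18 in J0571 cells, at 1.15, lies farthest from 0.

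More of these genes differed between sorted J0571 cells and whole root tips than in any other comparison made here. In J0571 control against root MS, 17 members were higher and 1 lower of 22, where 26.5% of all features were higher and 22.4% lower, and 30.2% and 19.1% of those of exactly 1 gene. All 6 tubulin genes, ACT11 and 10 IQD genes were higher, and IQD20 was lower. Among those called higher, TUA6 and IQD24 (log2 change 0.67, adjusted p = 0.00702) were at low signal. The median change was 0.90 for the 22 members, against 0.05 over all features and 0.13 over features of exactly 1 gene. Ecotype, construct, treatment time, tissue taken (roots or root tips), protoplasting, sorting and cell type all differ between these groups and cannot be told apart. Whether the scan batch differed as well is not known.

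IQD18, IQD19 and IQD22, which had been singled out with results of these data known, were among the 5 members with the largest difference. IQD22 read 9.62, 9.18 and 9.35 in J0571 control against 7.20, 7.25 and 7.13 in root MS, a 4.56-fold difference (log2 change 2.19, SE 0.12, adjusted p = 1.65e-09). Its level in J0571 control was close to that in root CHX, at 9.39 ± 0.22 against 9.42 ± 0.05 (SD, n = 3 each), a pair set side by side without a test. IQD19 read 9.85, 9.78 and 10.00 in J0571 control against 8.06, 7.82 and 7.72 in root MS, a 4.03-fold difference (log2 change 2.01, SE 0.16, adjusted p = 6.58e-08). IQD18 read 8.89, 8.73 and 8.55 in J0571 control against 7.17, 6.93 and 6.64 in root MS, a 3.50-fold difference (log2 change 1.81, SE 0.12, adjusted p = 1.06e-08). All 3 genes separated fully between these groups, as did IQD23 (1.69), IQD16 (1.40), IQD30 (1.27) and IQD31 (1.00), with adjusted p of 4.57e-07 or less.

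IQD20 went the other way. It read 5.90, 5.96 and 6.38 in J0571 control against 8.09, 7.60 and 7.78 in root MS (log2 change -1.75, SE 0.23, adjusted p = 1.25e-05). Its group means were 5.99 ± 0.17 in J0571 DEX and 6.08 ± 0.26 in J0571 control, and 7.33 ± 0.42 in root DEX+CHX, 7.49 ± 0.31 in root CHX, 7.61 ± 0.30 in root DEX and 7.83 ± 0.25 in root MS (SD, n = 3 each). No J0571 array reached the lowest root tip array, and neither CHX nor DEX changed IQD20 past the threshold. IQD25, IQD27, IQD29 and ACT12 did not pass in J0571 control against root MS, with changes of 0.16 to 0.35, and IQD25, IQD27 and ACT12 are among the 5 genes of low signal. With equal array medians, which raise each change here by 0.24, 20 members were higher and 1 lower.

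Among the tubulin genes TUB1 and TUB5 differed most. TUB1 read 9.67, 9.76 and 9.47 in J0571 control against 7.81, 7.78 and 7.46 in root MS (log2 change 1.95, SE 0.19, adjusted p = 6.02e-07). TUB5 read 8.88, 9.00 and 8.37 in J0571 control against 6.95, 6.94 and 6.79 in root MS (log2 change 1.85, SE 0.17, adjusted p = 4.14e-07). Both were well apart on every array, whereas TUB7 (0.93), TUB9 (0.88) and TUB6 (0.59) were higher by less, with adjusted p of 0.000184 or less. TUA6 (0.66, adjusted p = 0.0144) was higher at low signal, and without J0571 control replicate 1 its change was 0.38 (adjusted p = 0.0748). ACT11 read 9.47, 9.40 and 9.87 in J0571 control against 8.97, 8.23 and 8.58 in root MS (log2 change 0.99, SE 0.18, adjusted p = 0.000294).

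**Figure D5:**
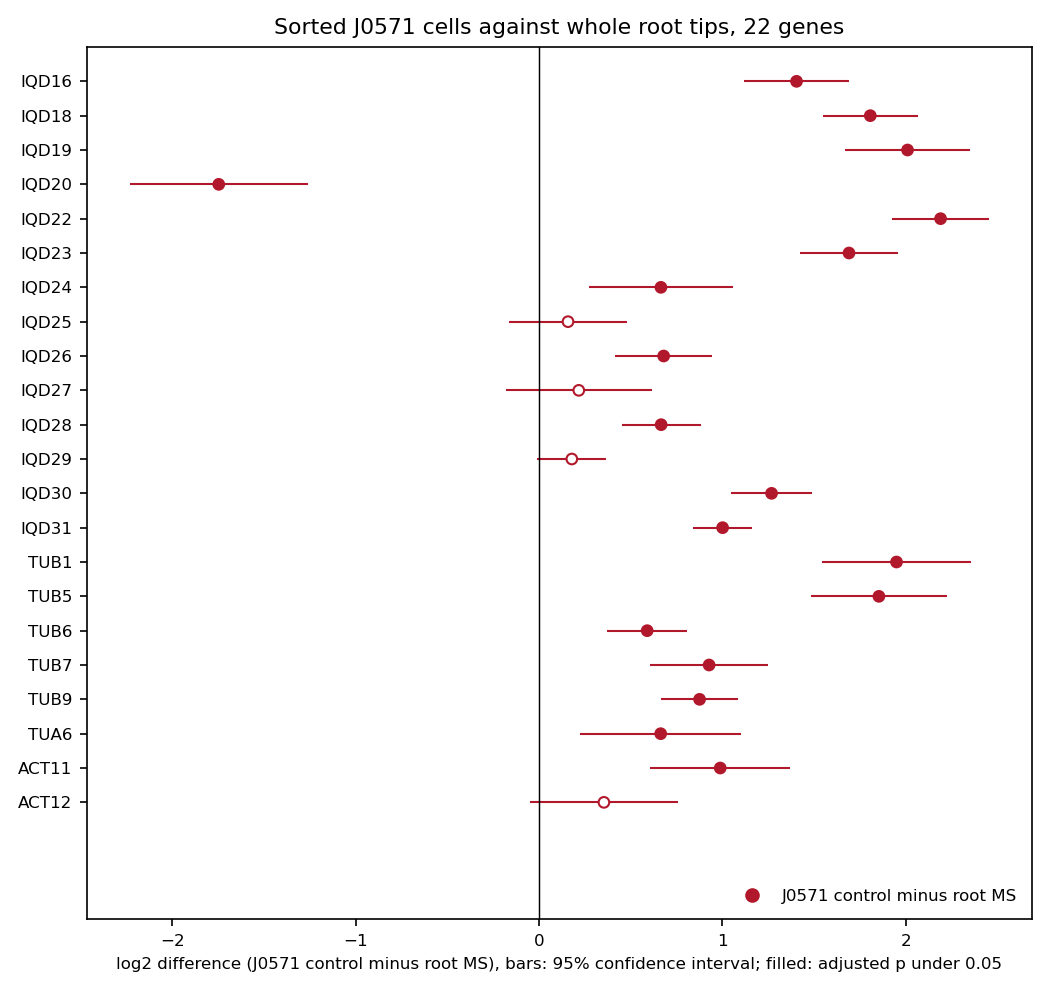
Log2 difference of each of the 22 genes between J0571 control and root MS. Points are differences of group means (n = 3 against 3), bars are 95% confidence intervals, and filled points have an adjusted p under 0.05. IQD20 lies at -1.75 and all other genes lie to the right of 0, up to 2.19 for IQD22.

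Markers of cell types and of stress differed between the same groups. Of 13 listed ground tissue markers 3 were measured, and all 3 were higher in J0571 control: JKD, a zinc finger factor of the ground tissue, by 0.87, AT4G28100 by 1.15 and AT1G62500, at low signal, by 0.73. The summed signal of the 3 was 1506 to 1833 in J0571 control and 752 to 935 in root MS, on the linear scale. Of 6 epidermis and root hair markers 2 were measured and both were lower, the expansins EXPA7 by -2.50 and EXPA18 by -2.27, with summed signals of 273 to 464 in J0571 control and 1723 to 1840 in root MS. Of 11 stele markers PHV, a class III homeodomain factor, was lower (-1.31) and OPS, a phloem gene at low signal, did not pass (0.14). Their summed signals, to which PHV gave more than OPS, were 73.2 to 76.4 in J0571 control and 143 to 179 in root MS. None of 3 root cap markers was measured, and SCR, SHR and WER were not analysed here. The stress gene STZ was higher in J0571 control by 1.09, AUR1 and AUR2 were lower (-1.02 and -0.44), and NET1A (1.38) and TON1B (0.59) were higher. In bulk RNA a different share of a cell type and a different amount of RNA per cell cannot be told apart, and the part of these markers in the members' differences was not tested.

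Another 4 genes of the same families fell outside the rule because their symbols are written in lower case or with an AT prefix: IQD15, IQD21, IQD32 and ATMAP65-6, a microtubule cross-linking protein of the MAP65 family. IQD15 rose with CHX, by 0.59 with DEX present (adjusted p = 0.000265) and 0.56 without (adjusted p = 0.000471). ATMAP65-6 fell with CHX, by 0.33 (adjusted p = 0.0106) and 0.39 (adjusted p = 0.00489), and IQD32 by 0.26 in both (adjusted p = 0.0247 and 0.027). Equal array medians raise each CHX change by 0.22 with DEX present and 0.17 without. The calls of these 4 genes were not tested at that scaling. IQD15 and IQD32 were also higher in J0571 control than in root MS, by 0.62 and 0.95. IQD21 lay below the array median on all 18 arrays and passed in no comparison, and none of the 4 genes was called with DEX.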

How the data were processed

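The deposited table holds log2 signals per probe set, which the authors made with RMA per the submitters' processing notes; for the genome build and scan batches the sources used here give nothing. Genes were named from the platform annotation, in which 16722 of 38408 features have 1 gene, 759 several and the rest none; all 22 members were linked to a locus of the TAIR10.1 annotation. The log2 values were fitted as deposited with limma 3.58.1 in R 4.3.3 (1 mean per group, eBayes), with the 12 root arrays, the 6 J0571 arrays or, between experiments, all 18 arrays. Adjusted p-values are Benjamini-Hochberg over all 38408 features, and the threshold is 0.05. The fit was tested on simulated data. Genes named with values are IQD18, IQD19, IQD22, members past the threshold (the 12 of largest change where more passed, and IQD29 with CHX), the extremes per family and every member of small families. The members and lists were chosen with earlier results of these data known. Alternatives covered scaling, filtering, variance estimation, a replicate block and leaving out each array. The number of arrays limits the precision. No sequences are shown.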

Additional observations from a re-analysis of the deposited data

How the results depend on the processing

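Counts of members called, both directions together, stayed within 1.5 times in all alternatives but 2: for J0571 DEX against J0571 control the count was 1 (IQD18) with an intensity trend and robust variances, and 1 with all 18 arrays in 1 fit, against 0 as reported. By direction, equal array medians left 4 lower calls in place of 10 in root DEX+CHX against root DEX, and 1 in place of 3 in root CHX against root MS. Without 1 array at a time the counts were 6 to 9 for root CHX against root MS, 11 to 13 for root DEX+CHX against root DEX, 17 to 19 for J0571 control against root MS, and 0 in the other 6 comparisons. Over the alternatives for the members called as reported and for IQD18 in the DEX comparisons, 0 values changed sign, 22 lost their call and 2 gained one. Of the members not called as reported, 3 passed under at least 1 alternative in root CHX against root MS (IQD19, TUB6 and TUA6), 2 in root DEX+CHX against root DEX (IQD18 and IQD23) and 3 in J0571 control against root MS (ACT12, IQD25 and IQD29). TUA6 in root DEX+CHX against root DEX was also lost with quantile normalization (adjusted p = 0.0863) and with all 18 arrays in 1 fit (0.0969). IQD28 in that comparison had an adjusted p of 0.059 without root DEX replicate 2, 0.0575 without root DEX replicate 3 and 0.0623 without root DEX+CHX replicate 3. Counting also the 4 genes outside the rule, an alternative chosen after seeing the data, gave 10 called of 26 with CHX alone, 16 with DEX present and 20 in J0571 control against root MS.

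The shared repeat numbers were not taken as pairs, since not every same-number correlation was over 0.1: deviations of same-numbered arrays correlated at -0.304 to 0.268 in root tips and 0.0453 to 0.30 in J0571 cells, and 5 of 6 J0571 arrays correlated best with their own number. With the number as a replicate block the counts were 7, 13 and 18 in the comparisons named above and 0 in the other 6, the same as without it, and the adjusted p of IQD18 in J0571 cells was 0.42.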
